A study of Mus musculus with 3 samples.

Results

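The genes described here encode the subunits of protein kinase A (PKA) and protein phosphatase 1 (PP1) that the testis uses, 9 genes chosen by symbol out of the 31053 genes counted in 3 libraries of mouse testis profiled by single-cell RNA-seq. They comprised 2 PKA catalytic subunits (Prkaca, Prkacb), 3 PKA regulatory subunits (Prkar1a, Prkar2a, Prkar2b), 3 PP1 catalytic subunits (Ppp1ca, Ppp1cb, Ppp1cc) and the PP1 inhibitor Ppp1r2. The 3 libraries came from C57BL/6 males and differed in the gonadotropin-regulated testicular RNA helicase GRTH (gene Ddx25). Wild-type (WT) mice carried the intact gene, knockout (KO) mice lacked it, and knock-in (KI) mice carried, as the study describes them, the human gene with an arginine-to-histidine change by which the phosphorylated form of GRTH is lost. No other allele or agent is named in the labels, and none restricts either mutation to a cell type. The labels give an age of 8 weeks and describe 1 mouse per genotype, whereas the study's methods state that testes were pooled within a genotype and name a wider range of ages. Each genotype was thus 1 library, so that no test across samples was possible and no difference between genotypes has a replicate.

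PKA is a tetramer in which a pair of regulatory subunits holds a pair of catalytic subunits inactive until cyclic AMP binds. The regulatory subunits fall into type I, which is largely soluble, and type II, which A-kinase anchoring proteins tether to structures such as the fibrous sheath of the sperm tail. PP1 removes phosphate from serine and threonine, its catalytic subunits are close paralogs, and the product of Ppp1cc includes a testis-specific splice form required for male fertility. Ppp1r2 (inhibitor-2) binds the PP1 catalytic subunit and holds it inactive.

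The libraries held 82973909 UMIs in WT, against 91388296 in KO and 73150373 in KI, where 1 unique molecular identifier (UMI) counts 1 captured transcript. Calling and filtering left 5879 WT, 4071 KO and 1577 KI cells in 16 clusters, with 8 to 36 cell barcodes shared between any pair of libraries. Depth per cell was unequal, with a median of 5091 UMIs in WT, against 3969 in KO and 11643 in KI. Clusters were named from marker genes as early meiotic-like (cluster 12, which also carried spermatogonial markers), spermatocyte (SP)-like (clusters 6, 7, 9, 11 and 14), round spermatid (RS)-like (clusters 1 and 4) and elongated spermatid (ES)-like (clusters 3, 5 and 8). One germ cell cluster, number 2, had no leading class and stayed unnamed. The WT library stood apart from both mutants in its ES-like cells, of which cluster 5 held 1112 in WT, with 11 in KO and 1 in KI. Without integration of the libraries, most cluster 8 cells of WT fell in another cluster (384 of 513 in ES-like cluster 6) than those of KO (236 of 287 in ES-like cluster 9) and KI (92 of 116, also in cluster 9). Mutant cells of cluster 3 were then partly placed among SP-like cells, 87 of 252 in KO and 37 of 96 in KI. ES-like cells were therefore compared between genotypes in cluster 8. The study reports that round spermatids of both mutants do not elongate. The name ES-like rests on marker transcripts and not on cell shape. Whether cluster 8 cells of WT and the mutants were at the same stage was not tested. Levels are given as CPM, the UMIs of a gene per 1000000 UMIs of the cells summed, with exact Poisson 95% intervals that cover counting error only. Differences are log2 ratios of (CPM + 1), which understates the change of genes at low level, with exact binomial intervals for counting error. Transcript length does not enter UMI counts from the 3′ end, and splice forms of a gene were not told apart.

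Ddx25 itself was read first as a check of the labels. Over all germ cell clusters it had 7028 UMIs in WT (129 CPM), against 14 in KO (0.289 CPM) and 4038 in KI (97.5 CPM). The KO library thus held almost none of the transcript, whereas the KI library held it at levels that differed from WT by class. KI was lower in early meiotic-like cells (67.1 CPM in WT and 29 in KI, log2 ratio -1.18) and in SP-like cells (218 and 87.8 CPM, -1.3), close to WT in RS-like cells (148 and 144 CPM, -0.04) and higher in cluster 8 (54.8 and 96.5 CPM, 0.81). Reads were counted on the mouse genome, and how far transcripts of the human gene in KI were counted as Ddx25 was not tested, so that the KI values are not read as levels of GRTH transcript. The near-empty barcodes of KO, those ranked 45000 to 90000 by UMIs, held 75 Ddx25 UMIs (8.39 CPM), more than its germ cells.

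The leading catalytic subunit of PKA was Prkacb in early meiotic-like cells and Prkaca in SP-like and RS-like cells. Prkaca (Cα; chromosome 8, 83972993 to 83996443, plus strand, GRCm38) took 23.7% of the PKA catalytic UMIs of early meiotic-like cells in WT, with 25.1% in KO and 19.9% in KI, and Prkacb (Cβ; chromosome 3, 146729574 to 146812990, minus strand) took the rest. In SP-like cells the Prkaca share was 84.2% in WT, against 89.1% in KO and 85.2% in KI, and in RS-like cells 92.9%, 94.8% and 93.3%. The near-empty barcodes had a Prkaca share of 94.1% in WT, against 97.3% in KO and 92.8% in KI, so that the RS-like shares were close to that background. The difference lay mostly in Prkacb, which stood at 102 CPM in WT, with 102 in KO and 103 in KI in early meiotic-like cells and at 7.64, 5.55 and 6.89 CPM in SP-like cells. In WT this was a log2 ratio of -3.58 (95% interval -3.89 to -3.26) between SP-like and early meiotic-like cells. The Prkacb levels of SP-like cells were still above those of the near-empty barcodes, 2.3 in WT, against 1.57 in KO and 3 CPM in KI, whereas those of RS-like cells, 2.14, 2 and 2.5 CPM, lay at that background. Most of these SP-like UMIs lay in cluster 6, which held 121 of 162 (WT), 132 of 166 (KO) and 145 of 183 (KI), at 12.1, 8.32 and 8.57 CPM. In cluster 11 the level was 3.63 CPM in WT, against 1.68 in KO and 1.84 in KI, with intervals that overlap those of the near-empty barcodes.

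Prkaca was within 25.6 to 45.3 CPM in the early meiotic-like, SP-like and RS-like classes, near the level of the near-empty barcodes. It was at 31.8, 34.4 and 25.6 CPM in early meiotic-like cells of WT, KO and KI, in SP-like cells 40.8, 45.3 and 39.6 CPM, and in RS-like cells 28.1, 36.3 and 34.7 CPM. The near-empty barcodes were at 36.5, 56.5 and 38.5 CPM, above the early meiotic-like and RS-like cells of each library and the SP-like cells of KO, and how much of the Prkaca of these cells was free RNA was not tested. In cluster 8 it was at 2.28 CPM in WT (19 UMIs), with 5.34 in KO (31 UMIs) and 2.78 in KI (11 UMIs), below the near-empty barcodes. Among the germ cell clusters the highest Prkaca level was that of SP-like cluster 7, the latest SP-like cluster by pseudotime, in each library (52, 54.4 and 59.7 CPM), with intervals that overlap those of cluster 11 in each.

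Prkx, a PKA-related catalytic kinase that is not one of the 9 genes, showed a different course and was included with Prkar1b for completeness. It had 2 UMIs in SP-like cells of WT, 16 in KO and 6 in KI, and in RS-like cluster 1 it was at 33.3 CPM in WT (44 UMIs), against 18.8 in KO (24 UMIs) and 39.1 in KI (32 UMIs). In cluster 8 it was at 2.4 CPM in WT (20 UMIs), with 17.9 in KO (104 UMIs) and 25 in KI (99 UMIs), and in both mutants the intervals of clusters 1 and 8 overlap. The log2 ratios against WT there were 2.47 (1.93 to 3) in KO and 2.93 (2.39 to 3.45) in KI, while the near-empty barcodes held 0.97, 5.37 and 7.31 CPM in the same order of libraries.

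**Figure D1:**
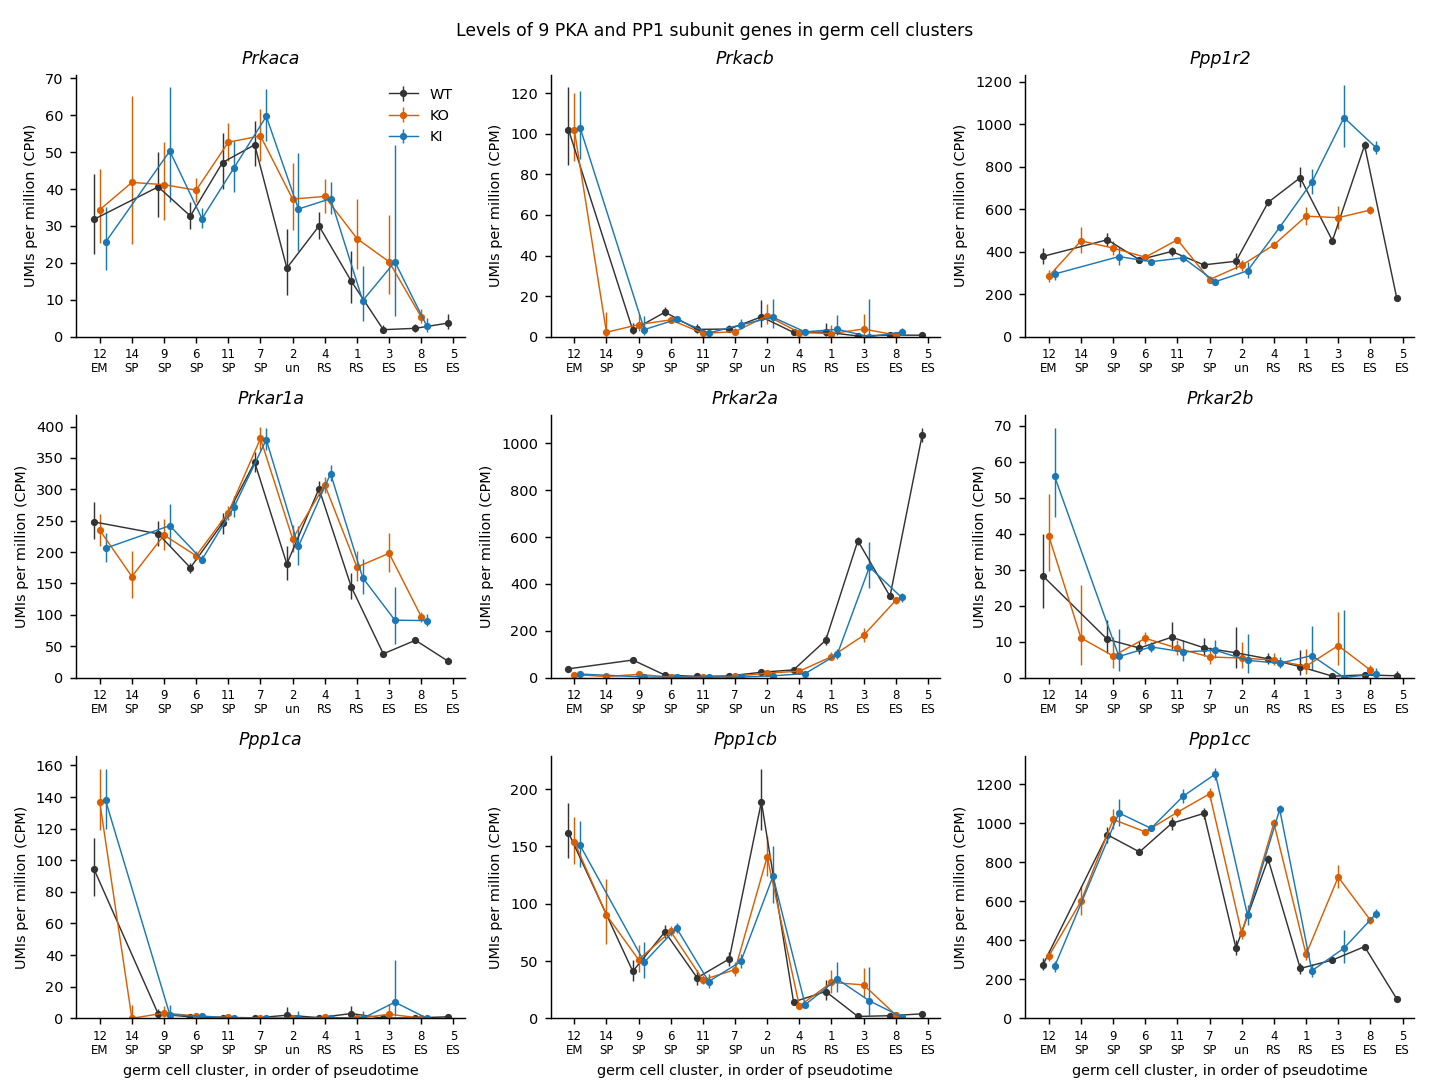
Levels of the 9 genes in CPM (linear axes) in the germ cell clusters, ordered by median pseudotime and named early meiotic-like (EM), SP, RS and ES-like or unnamed (un). Points are the sum over the cells of a cluster in 1 library where it held at least 50 cells, and bars are 95% Poisson intervals. Ppp1ca and Prkacb stand high in cluster 12 alone among the germ cell clusters, Ppp1cc is at 817 to 1072.0 CPM in RS-like cluster 4, and Prkar2a reaches 1034.7 CPM in WT cluster 5.

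The leading regulatory subunit of PKA was of type I in RS-like and earlier cells taken as classes and of type II in cluster 8. Prkar1a (RIα; chromosome 11, 109649405 to 109669656, plus strand) led from the early meiotic-like to the RS-like cells in each library, with 76.6% of the PKA regulatory UMIs of early meiotic-like cells in WT, against 79.6% in KO and 71.2% in KI. Its share was 87.3%, 91.9% and 92.3% in SP-like cells and 80.1%, 82.2% and 85.7% in RS-like cells. Prkar1a also led in the near-empty barcodes, with 63.4% in WT, against 72.7% in KO and 65.5% in KI. In cluster 8 the Prkar1a share was 13.9% in WT, with 20.9% in KO and 19.3% in KI. Prkar2a (RIIα; chromosome 9, 108689314 to 108750436, plus strand) then held 81.3%, 71.2% and 72.7%. The order of both genes was thus reversed in all 3 libraries between RS-like cells and cluster 8, and shares within a cell class do not depend on how the libraries are scaled. In ES-like cluster 3 the Prkar2a share was 91.5% in WT and 76.9% in KI. In KO it was 43.8% (38.3 to 49.4) there, beside Prkar1a at 48.1% (42.6 to 53.7), so that the order was not reversed in that cluster of KO. Within the RS-like class the libraries differed in cluster 1. In WT, Prkar2a held 50.1% (45.2 to 55) of its regulatory UMIs and Prkar1a 45.6% (40.8 to 50.5). There Prkar2a held 31.4% (26.7 to 36.5) in KO and 35.8% (29.6 to 42.5) in KI, below Prkar1a at 62% and 57.5%. The ES marker sum in cluster 1 was 22661.5 CPM in WT, against 6471.3 in KO and 5527 in KI, and its part in that difference was not tested. In the near-empty barcodes Prkar2a held 31.2% of the regulatory UMIs in WT and 21.4% in KO. Cells of cluster 1 had few UMIs, and the part of free RNA in their shares was not tested.

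In level, Prkar2a was at 32.6 CPM in WT, against 26.9 in KO and 16.8 in KI in RS-like cluster 4, at 159, 89.2 and 98.9 CPM in RS-like cluster 1 and at 347, 330 and 342 CPM in cluster 8. The near-empty barcodes held Prkar2a at 108 CPM in WT, with 80 in KO and 101 in KI. These levels were above cluster 4 of each library and near cluster 1 of KO and KI. WT alone had enough cells in ES-like cluster 5, where Prkar2a reached 1034.7 CPM (4221 UMIs). Prkar1a was at 301, 307 and 325 CPM in cluster 4 and at 59.4 in WT, with 97 in KO and 90.7 CPM in KI in cluster 8. In WT the log2 ratio between ES-like and RS-like cells was 3.55 (3.43 to 3.68) for Prkar2a and -2.64 (-2.75 to -2.54) for Prkar1a. Both directions were the same with TMM scaling, which gave 5.13 and -1.09.

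Prkar1b (RIβ), also outside the 9 genes, took 2.85% to 7.84% of the regulatory UMIs in the early meiotic-like, SP-like and RS-like cells and in cluster 8. Prkar2b (RIIβ; chromosome 12, 31958476 to 32061296, minus strand) was higher in early meiotic-like than in SP-like cells. It had 28.2 CPM there in WT (32 UMIs), against 39.3 in KO (56 UMIs) and 55.9 in KI (83 UMIs), and 9.11, 9.19 and 8.1 CPM in SP-like cells. The summed level of the 13 spermatogonial markers in the early meiotic-like cells followed the same order, 463 CPM in WT, with 630 in KO and 810 in KI, and its part in the Prkar2b difference was not tested. With Leiden resolution 0.6 a spermatogonia-like cluster of 98 cells stood apart, and the Prkar2b share of the early meiotic-like cells so defined was 1.68% in WT, against 7.41% in KO and 5.31% in KI. With the clusters used here it was 8.72%, 13.3% and 19.3%.

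**Figure D2:**
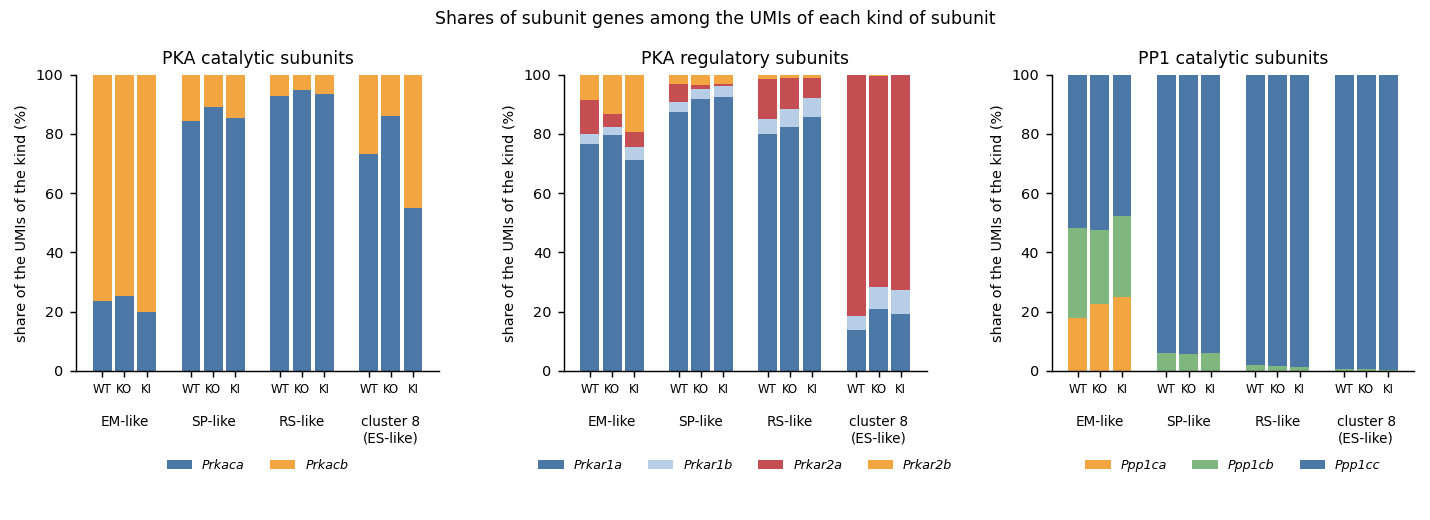
Stacked bars show the share (%) of each gene among the UMIs of the PKA catalytic, PKA regulatory or PP1 catalytic subunits, for early meiotic-like (EM-like), SP-like and RS-like cells and ES-like cluster 8 of each library. In cluster 8 the Prkar2a share is 71.2% to 81.3%, against 6.87% to 13.7% in RS-like cells.

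For Prkar1a and Prkar2a, 1 window each of 250 bases before an annotated start is printed because their order reversed between RS-like cells and cluster 8. For Prkaca 1 is printed because it belongs to the same holoenzyme. The Prkar1a window printed is the only window searched that held the full element described below. RefSeq windows (GRCm38.p6) were at hand for 8 of the 9 genes, 17 windows in all. They were searched on both strands for the cyclic AMP response element TGACGTCA, to which the spermatid activator CREM binds, and for its half-site TGACG, which the full element contains. Across 32851 windows of the same length of all genes, 1.55% held the full element and 17.8% a half-site. Among the windows of these genes, 1 held the full element, that of the fifth Prkar1a start, 49 bases before the start, and 5 windows of 3 genes (Prkaca, Prkacb, Prkar1a) held a half-site. The windows of Prkar2a, Prkar2b, Ppp1cb, Ppp1cc and Ppp1r2 held neither. Bases in capitals mark the full element or half-sites on either strand, read 5′ to 3′ along the gene.
Prkar1a, chr11:109650699-109650948, plus strand: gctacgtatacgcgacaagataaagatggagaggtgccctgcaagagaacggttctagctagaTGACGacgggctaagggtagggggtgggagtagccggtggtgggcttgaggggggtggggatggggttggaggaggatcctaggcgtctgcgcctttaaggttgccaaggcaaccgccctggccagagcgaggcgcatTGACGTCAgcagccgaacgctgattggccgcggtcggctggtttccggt
Prkar2a, chr9:108691893-108692142, plus strand: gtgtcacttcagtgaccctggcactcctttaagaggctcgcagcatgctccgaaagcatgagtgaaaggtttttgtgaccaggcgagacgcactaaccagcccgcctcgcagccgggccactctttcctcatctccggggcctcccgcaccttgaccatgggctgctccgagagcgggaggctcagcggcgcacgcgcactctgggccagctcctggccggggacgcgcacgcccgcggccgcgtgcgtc
Prkaca, chr8:83972728-83972977, plus strand: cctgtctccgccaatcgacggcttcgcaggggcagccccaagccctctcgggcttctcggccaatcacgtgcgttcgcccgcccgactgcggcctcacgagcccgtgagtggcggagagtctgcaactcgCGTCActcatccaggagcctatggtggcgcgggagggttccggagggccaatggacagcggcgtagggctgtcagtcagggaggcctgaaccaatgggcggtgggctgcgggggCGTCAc

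Of the catalytic subunits of PP1, Ppp1cc led in each germ cell class, and its share was lowest in early meiotic-like cells. In early meiotic-like cells Ppp1ca (PP1α; chromosome 19, 4192065 to 4195420, plus strand) held 17.7% of the PP1 catalytic UMIs in WT, against 22.5% in KO and 24.9% in KI. Ppp1cb (PP1β; chromosome 5, 32458843 to 32517433, plus strand) held 30.5%, 25.2% and 27.2%, and Ppp1cc (PP1γ; chromosome 5, 122158278 to 122175273, plus strand) held 51.7%, 52.3% and 47.9%. These shares depended on the clusters used. With Leiden resolution 0.6 the Ppp1cc share of early meiotic-like cells was 74.6% in WT, against 78.2% in KO and 77.9% in KI. With each cell classed by its own marker score it was 77.4%, 81.1% and 81.1%. In SP-like cells the Ppp1cc share was 94%, 94.4% and 94%, and in RS-like cells 97.9% in WT, with 98.4% in KO and 98.6% in KI.

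Ppp1ca was close to absent after the early meiotic-like cluster. It had 94.5 CPM in WT (107 UMIs), against 137 in KO (196 UMIs) and 138 in KI (205 UMIs) in early meiotic-like cells and 0.755, 1.14 and 0.904 CPM in SP-like cells, against 1.33, 1.34 and 3 CPM in the near-empty barcodes. In RS-like cells there were 8 Ppp1ca UMIs in WT, with 5 in KO and 3 in KI, out of 8385976 to 10736994 UMIs per library. The Ppp1ca ratios in early meiotic-like cells were 0.54 (0.19 to 0.89) in KO and 0.54 (0.2 to 0.89) in KI. With Leiden resolution 0.6, where spermatogonia-like cells stood apart, the Ppp1ca share of PP1 catalytic UMIs in early meiotic-like cells was 2.5% in WT, against 2.76% in KO and 1.93% in KI, and the KI ratio was -0.21. With each cell classed by its own marker score the shares were 1.84%, 2.15% and 1.46%. The annotation places exons of the minus-strand gene Rad9a over those of Ppp1ca.

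Ppp1cb was lower in each later class, with 162 CPM in WT, against 154 in KO and 151 in KI in early meiotic-like cells, in SP-like cells 59.4, 59.1 and 66.1 CPM, and in RS-like cells 15.5, 13.9 and 14.1 CPM. Single clusters departed from this order, such as ES-like cluster 3 of KO, at 29.2 CPM (23 UMIs). In the unnamed cluster 2 Ppp1cb was at 189 CPM in WT, with 141 in KO and 124 in KI. Mitochondrially encoded transcripts (mt-Co2, mt-Co1, mt-Atp6, mt-Co3) were among the leading genes of that cluster. Over the 32 sums of a germ cell cluster in a library with at least 50 cells, the genes nearest to Ppp1cb in log2 level were mt-Co3 (Pearson r 0.984), Cstf3 (0.98) and mt-Co1 (0.98). These points share their libraries and their depth, and the correlations are a description.

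Ppp1cc was the leading subunit gene of the 9 by UMIs in SP-like and RS-like cells of each library. Its level was 275, 320 and 266 CPM in early meiotic-like cells of WT, KO and KI, in SP-like cells 934, 1009.2 and 1047.1 CPM, and in RS-like cells 748, 900 and 991 CPM. In cluster 8 it was 368 CPM in WT, against 504 in KO and 537 in KI. Between WT SP-like and early meiotic-like cells the log2 ratio was 1.76 (1.6 to 1.92). Between WT ES-like and RS-like cells it was -1.38 (-1.43 to -1.33) by totals and 0.2 with TMM scaling, so that the direction of Ppp1cc at that last step depended on the scaling. The median over all genes at that step moved from -1.51 to 0.11 with the same change of scaling.

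Ppp1r2, the inhibitor (chromosome 16, 31251537 to 31275277, minus strand), was at higher level in RS-like than in SP-like cells of each library. It was at 378 CPM in WT, with 285 in KO and 295 in KI in early meiotic-like cells, in SP-like cells at 373, 383 and 340 CPM, in RS-like cells at 646, 453 and 536 CPM, and at 900, 596 and 889 CPM in cluster 8. The RS-like levels lay below those of the near-empty barcodes in each library, which are given further below. WT was the highest of the 3 libraries in RS-like cells and in early meiotic-like cells, while in cluster 8 WT and KI were close and KO was below both. The early meiotic-like log2 ratios against WT, -0.41 in KO and -0.36 in KI, were -0.18 and -0.1 with Leiden resolution 0.6. With each cell classed by its own marker score they were -0.12 and -0.08. The annotation holds 7 pseudogenes named after Ppp1r2 and 1 named after Prkaca, none of which had a row of its own in the counts, so that reads from a near-identical copy cannot be told apart from those of either gene.

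Differences between classes can be set against the whole transcriptome, in which most genes also differed. Among 9531 genes with a mean of at least 10 CPM in WT, 62.8% differed more than 2-fold between SP-like and early meiotic-like cells, and so did 6 of the 9 subunit genes, Ppp1cc upward and 5 downward (Prkacb, Prkar2a, Prkar2b, Ppp1ca and Ppp1cb). The medians were -1.19 over the 9 genes and -0.57 over all genes. With TMM scaling, which put the latter at 0.59, all 5 were still below 0 but Prkar2a (-0.23), Prkar2b (-0.58) and Ppp1cb (-0.45) were no longer past 2-fold. Between RS-like and SP-like cells 59.5% of genes were past 2-fold, and of the 6 subunit genes over the minimum 2 were, Prkar2a upward (1.56) and Ppp1cb downward (-1.88). Between ES-like and RS-like cells the share was 72.4%, and 4 of 5 subunit genes passed (Prkar2a upward, Prkaca, Prkar1a and Ppp1cc downward), leaving Ppp1r2 at -0.15 (-0.19 to -0.11). The direction of Ppp1r2 at this step turned with TMM scaling, to 1.42.

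In RS-like cells none of the 6 subunit genes over the minimum (Prkaca, Prkar1a, Prkar2a, Ppp1cb, Ppp1cc and Ppp1r2) was past 2-fold in KO against WT, where 6.09% of 8292 genes were, nor in KI against WT, where 7.73% were. Over the 6 genes the log2 ratios had a median of -0.06 (KO) and 0 (KI), beside 0.13 over all genes in both. Between KI and KO, 1.19% of genes and none of the 6 were past 2-fold. Prkacb, Prkar2b and Ppp1ca were under the minimum there, with 17 to 23 Prkacb, 35 to 53 Prkar2b and 3 to 8 Ppp1ca UMIs per library.

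Below 2-fold, the subunit genes of RS-like cells differed from WT in both directions. Ppp1r2 was lower in both mutants, with 6939 UMIs in WT (646 CPM), against 3845 in KO (453 CPM) and 4492 in KI (536 CPM), log2 ratios of -0.51 (-0.57 to -0.46) and -0.27 (-0.32 to -0.22). The ES marker sum of RS-like cells was also lower in both mutants (11655.5 CPM in WT, with 5061.8 in KO and 3886.5 in KI), Ppp1r2 was at 900 CPM in WT cluster 8, and the near-empty barcodes held Ppp1r2 at 661, 465 and 630 CPM. Their part in the Ppp1r2 difference was not tested. Ppp1cc was higher in both, at 748, 900 and 991 CPM, with ratios of 0.27 (0.22 to 0.31) in KO and 0.41 (0.36 to 0.45) in KI. The intervals of both genes lie on opposite sides of the median over all genes, but they cover counting error only and not the difference between mice or libraries. In RS-like cluster 1 alone, a choice made after the values were seen, the KI ratio of Ppp1cc was -0.07.

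As a measure that no scaling enters, Ppp1r2 was also set against Ppp1cc, a pair chosen after the levels were seen. In RS-like cells Ppp1r2 made up 46.3% (95% Clopper-Pearson interval 45.5 to 47.1) of the UMIs of both genes in WT, with 33.5% (32.6 to 34.3) in KO and 35.1% (34.3 to 35.9) in KI. In cluster 4 alone the shares were 43.6%, 30.1% and 32.5%. In cluster 1, whose cells had few UMIs, they were 74.5% in WT, against 63.4% in KO and 74.8% in KI, with intervals of WT (72.1 to 76.8) and KI (71.7 to 77.8) that overlap, so that KI stood below WT in cluster 4 and not detectably so in cluster 1. In early meiotic-like cells the shares were 57.8% (54.2 to 61.4) in WT, against 47% (43.7 to 50.4) in KO and 52.6% (49.1 to 56) in KI. There too, before the spermatid stage, WT was highest and KO lowest. Over all SP-like cells the shares were closer, at 28.5% in WT, against 27.5% in KO and 24.5% in KI. Single SP-like clusters differed, with 24.3%, 18.9% and 17.1% in cluster 7, a KO share above that of WT in cluster 11 (28.6%, 30.1% and 24.6%), and 51.9%, 42.9% and 47.3% in cluster 14, which held 22 to 51 cells per library. In cluster 8 it was 71% in WT, against 54.2% in KO and 62.3% in KI. The near-empty barcodes gave 54.8% in WT, with 39.7% in KO and 48.4% in KI, again with WT highest and KO lowest, and their part in the difference was not tested.

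**Figure D3:**
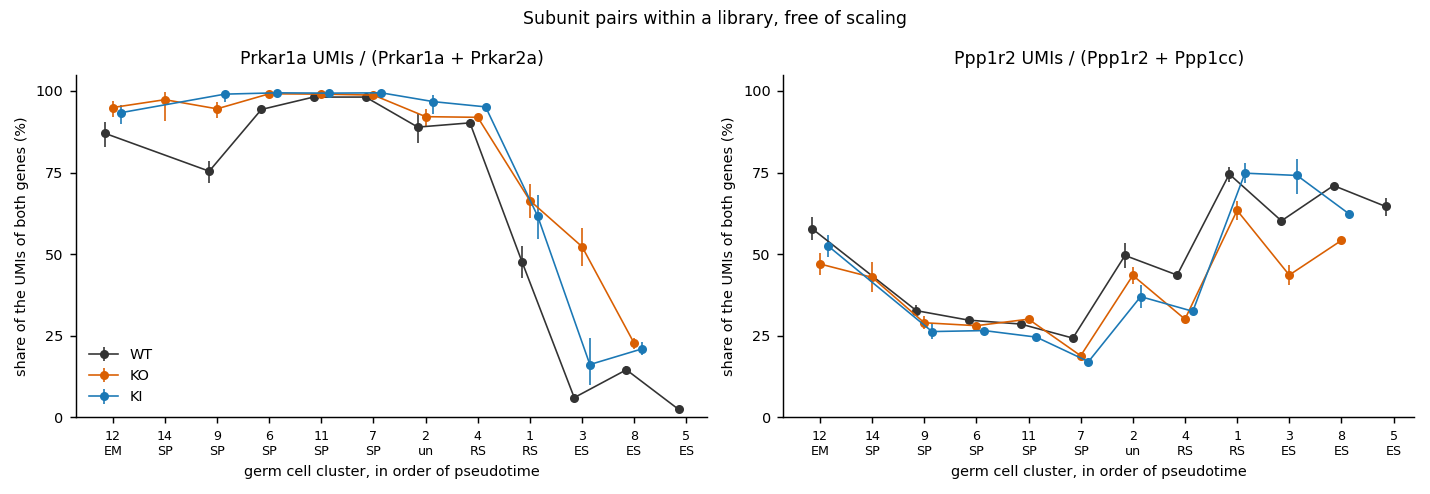
Share (%) of Prkar1a among the UMIs of Prkar1a and Prkar2a (left) and of Ppp1r2 among those of Ppp1r2 and Ppp1cc (right), by germ cell cluster in order of pseudotime (EM, early meiotic-like; un, unnamed), in each library. Bars are 95% Clopper-Pearson intervals, and the Ppp1r2 share of RS-like cluster 4 is 43.6% in WT, above 30.1% in KO and 32.5% in KI.

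In RS-like cells the lowest KI ratio among the 6 genes was that of Prkar2a, with 518 UMIs in WT (48.2 CPM), against 308 in KO (36.3 CPM) and 208 in KI (24.8 CPM). The log2 ratios were -0.4 (-0.61 to -0.2) in KO and -0.93 (-1.16 to -0.7) in KI. When each cell took its class from its own marker score, they turned to 1.02 and 0.61. The summed level of the 10 ES markers in RS-like cells, given above, was lower in both mutants too, and its part in the Prkar2a difference was not tested. The near-empty barcodes held Prkar2a at 108, 80 and 101 CPM, above the RS-like cells of each library. How much of the RS-like Prkar2a was free RNA was not tested.

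Prkar2a was also higher in WT in the cells before the spermatid stage. In early meiotic-like cells Prkar2a had 42 UMIs in WT (37.1 CPM), against 18 in KO (12.6 CPM) and 22 in KI (14.8 CPM), and in SP-like cells 15.7, 3.14 and 1.54 CPM. SP-like cluster 9 held 162 of the 332 WT UMIs of that class, at 74.7 CPM, against 13.3 in KO and 2.34 in KI. Its ES marker sum was 21453.4 CPM in WT, with 1693.9 in KO and 1020 in KI. The Prkar2a levels were 10.5, 1.83 and 1.18 CPM in cluster 6, 6.66, 5.03 and 2.1 CPM in cluster 7, and 4.84, 2.72 and 1.84 CPM in cluster 11. The ES marker sum in SP-like cells was 4545 CPM in WT, with 490 in KO and 247 in KI, and in the near-empty barcodes 54961.7, 20788.3 and 28022.3 CPM. Per 1000 ES marker UMIs, Prkar2a had 3.45 UMIs in SP-like cells of WT, 6.42 in KO and 6.25 in KI, and in early meiotic-like cells 5.6, 9.99 and 29.9. The near-empty barcodes had 1.97, 3.85 and 3.59, lower than both classes of each library. Single SP-like clusters lay below the near-empty barcodes of their library. These were cluster 9 of KI at 2.29 and cluster 14 of KO at 3.58, on 2 Prkar2a UMIs each. The ratios per ES marker UMI carry no interval. How much of the earlier cells' Prkar2a was free RNA was not tested.

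In RS-like cells Prkaca was higher in both mutants, at levels below the near-empty barcodes in each library, and Prkar1a differed little. Prkaca was at 28.1 CPM in WT, against 36.3 in KO and 34.7 in KI, with ratios of 0.36 (0.13 to 0.58) and 0.29 (0.06 to 0.52). The KO ratio kept its sign in 18 of 18 alternatives and the KI ratio in 15 of 18. Prkar1a was at 282, 287 and 309 CPM, with ratios of 0.02 (-0.05 to 0.1) and 0.13 (0.06 to 0.21), beside the median of 0.13 over all genes. With TMM scaling, which brought that median to -0.04 in KO and -0.01 in KI, the Prkar1a ratios were below 0. Ppp1cb was at 15.5, 13.9 and 14.1 CPM, and its intervals, -0.47 to 0.18 in KO and -0.46 to 0.2 in KI, spanned 0. Between KI and KO the log2 ratios farthest from 0 were those of Prkar2a (-0.53, interval -0.78 to -0.28) and Ppp1r2 (0.24, 0.18 to 0.3).

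**Figure D4:**
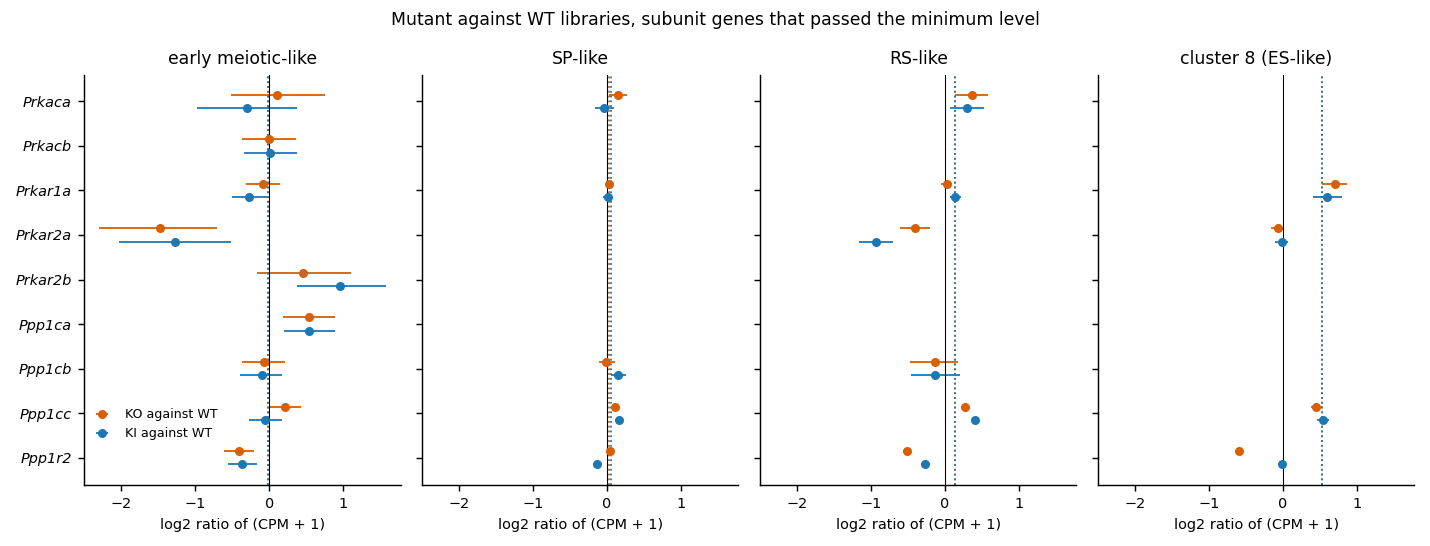
Log2 ratio of (CPM + 1) of KO and KI against WT for the genes that passed the minimum level, in early meiotic-like, SP-like and RS-like cells and in ES-like cluster 8. Points are the ratio of 2 libraries, bars are 95% intervals for counting error only, and dotted lines are the medians over all genes, which reach 0.53 in cluster 8.

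In early meiotic-like cells 1 of the 9 subunit genes was past 2-fold in KO, where 5.1% of genes were, and 1 in KI, where 7.87% were. Both times it was Prkar2a, at -1.48 (-2.3 to -0.7) in KO and -1.27 (-2.03 to -0.52) in KI, beside ES marker sums of 6617.2 CPM in WT, with 1263.5 in KO and 495 in KI. The KI ratio was no longer past 2-fold with doublets removed (-0.85) or a pseudocount of 10 CPM (-0.92). Prkar2b, at 0.96 (0.37 to 1.58) in KI, lay just under the limit. It was past 2-fold upward in KI with cells called by UMI total alone (1.92), with cells under 5% mitochondrial UMIs (1.41), with Leiden resolution 0.6 (1.27), with cells given the same class without integration (1.06) and with doublets removed (1.04). As the mean of the cells' own CPM it was 0.33. In KO, at 0.46, it was past 2-fold with Leiden resolution 0.6 (1.77) and with each cell's own marker score (1.58). In SP-like cells none of the 5 genes over the minimum was past 2-fold, where 2.38% of genes were in KO and 3.58% in KI. Prkacb, Prkar2a, Prkar2b and Ppp1ca were under the minimum there and not counted. Of these, Prkar2a was lower in both mutants, at 15.7 CPM in WT, against 3.14 in KO and 1.54 in KI. There Prkaca, Prkar1a, Ppp1cb, Ppp1cc and Ppp1r2 had ratios between -0.13 and 0.16, with Ppp1cc at 0.11 (0.09 to 0.14) in KO and 0.16 (0.14 to 0.19) in KI.

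Cluster 8 was an ES-like cluster that each library held in number. There 4 subunit genes passed the minimum and none was past 2-fold, whereas 29.3% of 6832 genes were in KO and 29.2% in KI. The median over all genes was 0.53 in both, and Prkar1a (0.7 in KO and 0.6 in KI) and Ppp1cc (0.45 and 0.54) lay near it. Prkar2a was at -0.07 (-0.16 to 0.01) in KO and -0.02 (-0.11 to 0.07) in KI, below that median. Ppp1r2 was at -0.59 (-0.65 to -0.53) in KO and at -0.02 (-0.07 to 0.04) in KI, so that its level was 596 CPM in KO against 900 in WT and 889 in KI. The ES marker sum there was 201879 CPM in WT, against 80234.4 in KO and 79044.2 in KI, and how far that alone moved the other genes' CPM was not tested. In ES-like cluster 3, whose mutant cells were partly SP-like without integration, subunit genes did pass 2-fold. Prkar1a (2.36 in KO, 1.25 in KI), Prkaca (2.87 in both) and Ppp1cb (3.51, 2.61) were higher in both mutants. In KI Prkaca had 4 UMIs and Ppp1cb 3. Ppp1cc was higher in KO (1.27) and Ppp1r2 in KI (1.19), while Prkar2a was lower (584 CPM in WT, 180 in KO, 472 in KI). The share of all genes is not given there.

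The partners of these enzymes were described in 4 lists of other genes of the pathway. Of the PKA inhibitors and further subunits, 4 of 5 genes passed the minimum in RS-like cells and none was past 2-fold in either mutant, beside 6.09% of all genes in KO and 7.73% in KI. Pkig, a PKA inhibitor peptide, was at 297 CPM in WT, with 375 in KO and 382 in KI, and Pkib, another of that family, at 439, 362 and 370 CPM. The list's median log2 ratio was 0.12 in KO and 0.24 in KI, beside 0.13 over all genes. In SP-like cells 1 of 2 genes, Pkib, was past 2-fold lower in both mutants, at 36.4 CPM in WT, against 13.7 in KO and 9.94 in KI, beside 2.38% and 3.58% of all genes past 2-fold. Pkib was at 1193.3 CPM in WT ES-like cells, and the part of the ES marker sum, which in SP-like cells was 4545, 490 and 247 CPM, was not tested. In cluster 8, 1 of 4 genes, Prkx, was past 2-fold higher in both, beside 29.3% and 29.2% of all genes.

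Of the A-kinase anchoring and RII-domain sperm proteins, which bind the type II regulatory subunits or share their docking domain, 16 of 22 genes passed in RS-like cells and none was past 2-fold, where 6.09% of all genes were in KO and 7.73% in KI. Their medians were 0.04 in KO and -0.05 in KI. The highest were Ropn1l, at 3940.8 CPM in WT, against 3633.7 in KO and 3671.2 in KI, and Spa17, at 1643.4, 1692.8 and 1640.4 CPM. Akap4, the main anchoring protein of the fibrous sheath, was at 300, 248 and 235 CPM, with ratios of -0.27 (-0.35 to -0.2) in KO and -0.35 (-0.43 to -0.27) in KI. Ropn1, which has an RII-like docking domain, was at 766 CPM in WT, with 579 in KO and 544 in KI. Both are genes of late spermatids in WT, at 1376.6 CPM (Akap4) and 942 CPM (Ropn1) in ES-like cells, and they were lower in both mutants in RS-like cells, as was the ES marker sum there, whose part was not tested. Akap7 (0.4 in KO and 0.63 in KI) and Akap9 (0.25 and 0.5) were higher in both. In SP-like cells 17 genes of the list passed, of which Akap4 (-1.97 in KO and -2.65 in KI) and Ropn1 (-1.18 and -1.85) were past 2-fold lower in both mutants and Cabyr (-1.16) in KI, where 2.38% and 3.58% of all genes were past 2-fold. The ES marker sum was 4545 CPM in WT SP-like cells, against 490 in KO and 247 in KI, and its part was not tested. In cluster 8, 4 of 15 genes were past 2-fold higher in each mutant, Akap6, Akap14 and Fsip1 in both, where 29.3% and 29.2% of all genes were past 2-fold.

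Of 26 genes of cyclic AMP synthesis and breakdown, 10 passed in RS-like cells, and 1 was past 2-fold upward in both mutants and none downward, beside 6.09% of all genes past 2-fold in KO and 7.73% in KI. This was the phosphodiesterase Pde4b, at 14.9 CPM in WT (160 UMIs), against 36.3 in KO (308 UMIs) and 44.2 in KI (371 UMIs), ratios of 1.23 (0.96 to 1.5) and 1.51 (1.25 to 1.77). Its paralog Pde4d was at 73.6, 41.4 and 55.3 CPM, lower in both. Adcy10, the soluble adenylyl cyclase that makes cyclic AMP in sperm, was at 148 CPM in WT, with 119 in KO and 144 in KI. The list's medians were 0.17 in KO and 0.21 in KI. In SP-like cells 10 genes passed and Pde4d was past 2-fold lower in KO (-1.06) and at -0.4 in KI, beside 2.38% and 3.58% of all genes past 2-fold. In cluster 8, 5 of 9 genes were past 2-fold higher in KO and 4 of 9 in KI, with Adcy2, Pde4a, Pde7b and Pde8a in both, beside 29.3% and 29.2% of all genes past 2-fold.

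Of 35 PP1 regulatory subunits, 20 passed in RS-like cells, with 1 past 2-fold upward and 1 downward in each mutant, beside 6.09% of all genes in KO and 7.73% in KI. Ppp1r37 was at 6.71 CPM in WT (72 UMIs), against 19.1 in KO (162 UMIs) and 19.6 in KI (164 UMIs). Ppp1r27 was at 22.4 CPM in WT (240 UMIs), with 7.3 in KO (62 UMIs) and 3.1 in KI (26 UMIs). Both were named after their values were seen. Ppp1r11 (inhibitor-3) was the highest of the list, at 1342.1, 1321.4 and 1300.5 CPM, and Ppp1r7 (Sds22), another regulator of the catalytic subunit, was at 112, 151 and 146 CPM. The list's medians were 0.18 in KO and 0.07 in KI, around the 0.13 of all genes. In SP-like cells, where 21 genes passed, Spz1 was past 2-fold lower in both mutants (-1.36 and -1.69) and Tsks in KI (-1.24), beside 2.38% of all genes in KO and 3.58% in KI. In WT ES-like cells Spz1 was at 2006.3 CPM and Tsks at 865 CPM, and the part of the lower ES marker sum of the mutant SP-like cells was not tested. In cluster 8, 6 of 17 genes were past 2-fold higher in KO and 5 of 17 in KI, beside 29.3% and 29.2% of all genes past 2-fold. Among them was Ppp1r32, at 80.4 CPM in WT, against 213 in KO and 212 in KI. The genes named from the lists in SP-like cells and cluster 8 were named after their values were seen.

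The genes nearest in course to each subunit gene over the same 32 sums, among 7209 genes with a mean of at least 20 CPM, are given as a description. For Prkar2a they were 4921507P07Rik (Pearson r 0.976), H2al2a (0.976) and Slc25a37 (0.972), of which H2al2a encodes a histone variant of late spermatids. Prkaca was nearest to Cfap20 (0.981), Tbp (0.98) and Dctn6 (0.98), and Prkar1a to Mcm7 (0.961), Kpna2 (0.961) and Mmadhc (0.951). Ppp1cc was nearest to Cops4 (0.965), Btbd1 (0.961) and Pih1d1 (0.958). Ppp1r2 had no close match, its first being Defb30 (0.851). Prkacb was nearest to Cdc42bpa (0.929), Prkar2b to Blm (0.939) and Ppp1ca to Hspd1 (0.922). Between the members, Prkar1a and Prkaca had r 0.888, and Prkar1a and Prkar2a had r -0.768.

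Outside the germ line, Prkacb and Ppp1ca were above the near-empty barcodes in the Leydig-like, macrophage-like and stromal and myoid-like cells of each library, on few UMIs, and Ppp1ca in the Sertoli-like cells too (27.1, 33.1 and 39.2 CPM). In stromal and myoid-like cells of KI Prkacb was at 103 CPM (12 UMIs) and Ppp1ca at 94.2 CPM (11 UMIs), and in macrophage-like cells of KI at 61.3 (11 UMIs) and 94.7 CPM (17 UMIs). In the 56 Leydig-like cells Prkacb was at 115 CPM in WT (15 UMIs), against 53.1 in KO (11 UMIs) and 62.6 in KI (26 UMIs), and Ppp1ca at 168, 111 and 176 CPM. Ppp1cc held 43.1% of the PP1 catalytic UMIs of these cells in WT, with 43.8% in KO and 46.5% in KI. In the Sertoli-like cluster the Ppp1cc share was 94.4%, 91% and 89.4%, close to that of the near-empty barcodes (96.2%, 97.1% and 95.8%), and Ddx25, a gene of germ and Leydig cells, was at 186 CPM in that cluster in WT. The subunit values of the Sertoli-like cluster are not read as those of Sertoli cells.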

How the data were processed

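Cells of 3 testis libraries (WT, KO, KI; 1 each) were studied by droplet 3′ RNA-seq. The deposited matrices hold raw UMI counts per gene and barcode, unfiltered, made by the authors with Cell Ranger (version 4 per the file headers, 2.1.1 per the submitters' processing notes) on mm10. Cells were called here against near-empty barcodes, kept with over 500 genes and under 10% mitochondrial UMIs, integrated with Seurat 5.3.0 (sctransform 0.4.2, 2000 variable genes), clustered with scanpy 1.11.5 (Leiden resolution 0.3) and named from marker genes, so that class names are rebuilt and may differ from the study's. Counts were summed per class and library and expressed as CPM, and genes with a mean of at least 10 CPM entered comparisons. Doublets were kept and removed in an alternative. They were unequal between libraries, with 164 of 5879 cells in WT, against 4 of 4071 in KO and 4 of 1577 in KI. Intervals were computed with scipy 1.17.1 in Python 3.11.15 and were checked on simulated data. They cover counting error only. The alternatives covered cell calling, filters, classes, scaling (TMM of edgeR 4.0.16, size factors of DESeq2 1.42.0, in R 4.3.3), pseudocount, fold limit and minimum level, and 5 were chosen after seeing the data. Of each pathway list, genes with a mean of at least 20 CPM in RS-like cells that differed most in the same direction in both mutants, and those of highest WT level, could be named, as could the genes most alike in course to each subunit gene. The members and lists were chosen with earlier results of these data known.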

Additional observations from a re-analysis of the deposited data

Results flagged for a closer look

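Prkar1a differed from WT in opposite directions between cell classes of the KI library. Its log2 ratio was 0.6 in cluster 8 and 0.13 in RS-like cells, against -0.27 (95% interval for counting error -0.5 to -0.03) in early meiotic-like cells. With 1 library per genotype the difference between classes was not tested. The median over all genes was 0.53 in cluster 8, 0.13 in RS-like cells and -0.01 in early meiotic-like cells, and with TMM scaling the RS-like ratio was below 0. With cells under 5% mitochondrial UMIs the early meiotic-like ratio of Prkar1a was -0.01.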

How the results depend on the processing

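No replicate could be left out, and no paired analysis was possible because each genotype was 1 library. In RS-like cells the count of subunit genes past 2-fold was 0 in both mutants. In KI it was 1 (Prkar2a) with Leiden resolution 0.6, TMM scaling, DESeq2 size factors and a fold limit of 1.5. In KO it was 1 with each cell classed by its own marker score, where Prkar2a was higher than in WT. The KO median of -0.06 was 0.27 with Leiden resolution 0.6, -0.22 with TMM, -0.24 with DESeq2 size factors and 0.13 as the mean of the cells' own CPM. Among settings chosen after seeing the data it was 0.32 in cluster 1 alone and 0.1 with cluster 2 counted as RS-like. The KI median of 0 was 0.16 with Leiden resolution 0.6. Between WT RS-like and SP-like cells the count of 2 was 5 in cluster 1 alone and 1 with cluster 2 counted as RS-like. The cause was not tested. In all, 14 of 119 such values moved beyond their limits, and the KO median changed sign in 5 of 19 alternatives. Of the shares of single subunit genes, 233 of 946 moved beyond their limits, and of their log2 ratios 87 of 636. The RS-like ratio of Ppp1r2 kept its sign in 18 of 18 alternatives in both mutants, from -0.7 to -0.4 in KO and from -0.42 to -0.04 in KI. None of these corrected the Ppp1r2 counts for free RNA. Prkacb, Prkar2b and Ppp1ca were under the minimum level in RS-like cells.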
